A study of Rattus norvegicus with 4 samples.

Results

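Gdf15 and 9 genes of the transforming growth factor beta (TGF-beta) pathway were followed on 4 one-colour microarrays of rat macrophages. They are 10 of 16581 genes that could be named, and 15 of 45598 probes. Gdf15 was chosen by its measured signal, which was lower on the array of replicate 1 than on the other arrays, and the other members are ligands, receptors and Smad genes of the pathway and the activin gene Inhba. NR8383 is an alveolar macrophage line that came from the lung lavage of a normal rat, and it was used here after 20 passages. All 4 samples were seeded 48 h before and exposed for 4 h to NRCWE049, carbon nanotubes carrying NH2 groups, at 1.2 cm2/cm2, and the design text of the series calls them biological replicates. They were hybridised on 1 slide in separate positions, so array position and replicate cannot be told apart. Arrays of unexposed cells were not analysed here, so no value below compares exposed with unexposed cells, and the spread is that between exposed cultures of 1 line.

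TGF-beta ligands are secreted in a latent form, and once released they bring together a type II receptor (Tgfbr2) and a type I receptor (Tgfbr1). The type I receptor phosphorylates Smad2 and Smad3, which enter the nucleus with Smad4, and Smad7 is an inhibitory Smad that the pathway itself induces. In alveolar macrophages TGF-beta is known to support the differentiation programme that includes Pparg. Gdf15 is a distant member of the ligand family, a secreted stress hormone that signals through the receptor Gfral with Ret, and its transcription is known to respond to ATF4 and CHOP (encoded by Ddit3).

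Each level given here is the log2 processed signal of a probe, less the 75th percentile of its array over probes detected on all arrays. A probe is detected where Agilent's flag for a signal well above background holds on 4 of 4 arrays. Where detection is given for single arrays or a number of arrays, the flag on those arrays is meant. A level serves to follow 1 probe between arrays and is not compared with that of another gene. The arrays detected between 19143 and 19311 probes each. All 12 macrophage markers were detected, including Csf1r, Cd68 and Spi1, against 5 of 34 measured markers of fibroblasts (1 of 8), epithelium (0 of 8), lymphocytes (1 of 6), endothelium (2 of 6) and neutrophils (1 of 6). The 5 were Fap, Cd4, Pecam1, Cdh5 and S100a8. In such bulk RNA, fewer cells expressing a gene and less RNA per cell cannot be told apart.

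Of the 10 members, 6 were detected (Gdf15, Tgfb1, Tgfbr1, Tgfbr2, Smad2 and Smad7), and 4 were well above background on 0 arrays (Tgfb2, Tgfb3, Smad3 and Inhba). Over all named genes 52.5% were detected, so the members' share lay near that of the array. The exposed cells thus gave a measurable signal for 1 of the 3 TGF-beta ligand genes, both receptor genes, 1 of the 2 receptor-regulated Smads of the list, and the inhibitory Smad. Gdf15 was the sole detected member whose levels spanned more than 2-fold between arrays, against 2.66% of the detected genes, and it was chosen for that difference.

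**Figure D1:**
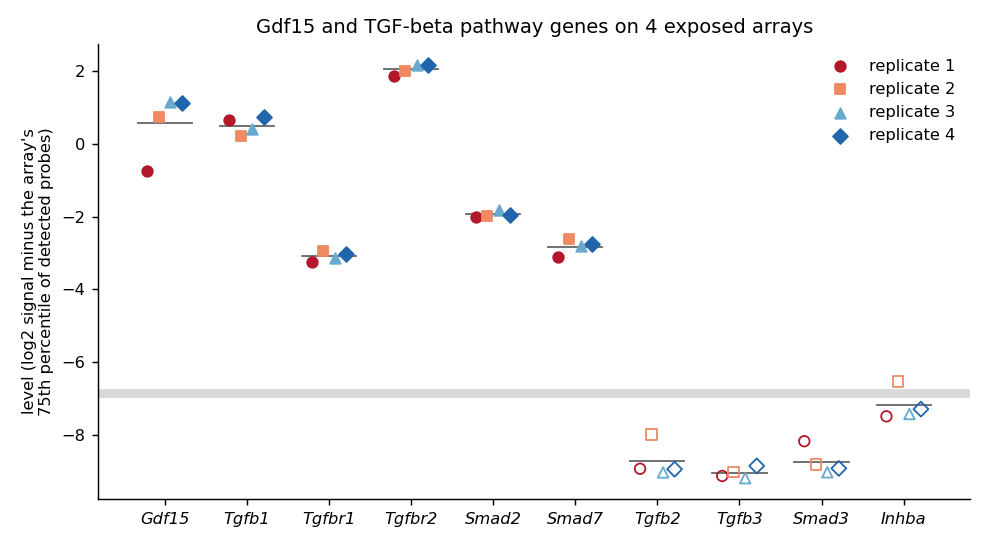
Level of each member (y axis, log2 processed signal minus the array's 75th percentile of detected probes) on the 4 exposed arrays, with 1 symbol per replicate and a line at the mean. Filled symbols are detected genes, open symbols were not well above background, and the grey band spans the lowest level of a detected probe on each array (-6.97 to -6.78). Gdf15 has its replicate 1 symbol far below the others.

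The Gdf15 probe (RefSeq NM_019216, gene 29455, 1 probe with 1 spot) had processed signals of 1189, 3324, 5581 and 5264 in replicates 1 to 4. On the level scale these were -0.73, 0.75, 1.16 and 1.13, with a mean of 0.58 ± 0.89 (SD, n = 4). Replicate 1 was lowest, replicate 2 lay between, and replicates 3 and 4 were close to each other. Replicate 1 fell 1.86 log2 units below the median of the other arrays, a scaled signal 3.63-fold lower. Agilent's error model gave each of the 4 spot signals an error of 10.0% of its value. This difference is a description, since it is what the gene was picked for, and it carries no test. Among the 8713 detected genes, 7 (0.0803%), Gdf15 included, were at least as far below in replicate 1, and 12 (0.138%) spanned at least as wide a range. Each of the 500 detected genes nearest to Gdf15 in mean level had a smaller SD, with a median of 0.11. The gap between replicate 1 and replicate 2 was 0.78 of the whole range, and replicate 2 was in turn below replicates 3 and 4. Without replicate 1 the SD was 0.23.

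**Figure D2:**
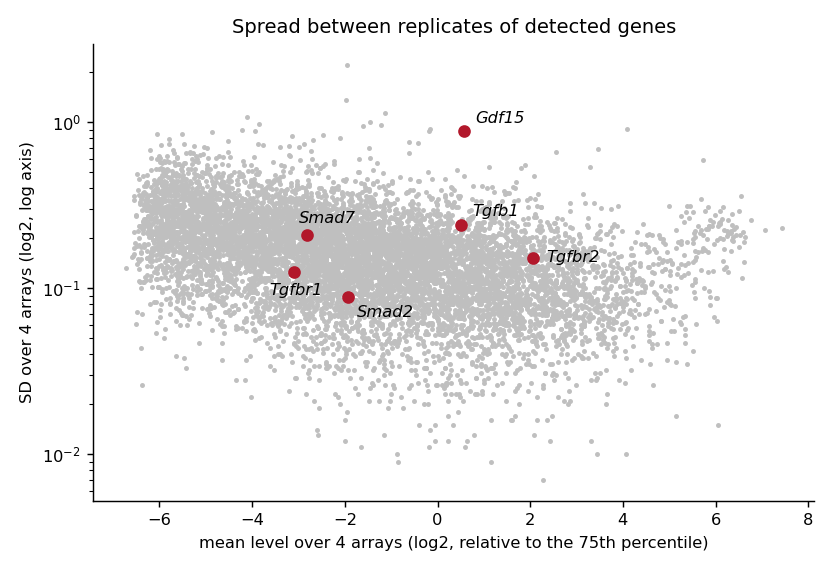
SD over 4 arrays (y axis, log2 units, log axis) against mean level (x axis, log2) for the 8713 detected genes in grey and the 6 detected members in red. Gdf15 lies at an SD of 0.89 above genes of like level, while the other 5 members lie within the cloud at SDs of 0.09 to 0.24.

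The upstream sequences of Gdf15 and of Trib3, Chac1 and Ppp1r15a, 3 stress genes that were also lowest in replicate 1, are shown so that the letters of known stress elements can be compared. The 4 genes were picked after their values were seen. RefSeq sequences of the GRCr8 assembly were matched by symbol, and all 10 members had an entry. Each run holds the 250 bases before a start site, 5′ to 3′ on the strand of the gene, and capitals mark every match to 6 motifs searched on both strands, where neighbouring matches may touch or share a base. Gdf15 has 2 start sites 829 bases apart, and the downstream one is printed.
Gdf15 promoter (chr16:18839015-18839264, + strand): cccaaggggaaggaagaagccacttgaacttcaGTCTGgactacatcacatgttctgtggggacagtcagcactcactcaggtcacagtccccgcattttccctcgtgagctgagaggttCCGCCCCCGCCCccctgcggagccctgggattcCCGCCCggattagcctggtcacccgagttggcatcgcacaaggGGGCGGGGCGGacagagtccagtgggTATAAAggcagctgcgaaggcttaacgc
Trib3 promoter (chr3:161275534-161275783, - strand): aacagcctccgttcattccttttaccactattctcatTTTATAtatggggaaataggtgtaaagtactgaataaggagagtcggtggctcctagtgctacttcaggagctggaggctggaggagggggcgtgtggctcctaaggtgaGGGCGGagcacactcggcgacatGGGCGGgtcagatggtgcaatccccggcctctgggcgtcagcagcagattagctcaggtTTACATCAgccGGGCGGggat
Chac1 promoter (chr3:126795881-126796130, + strand): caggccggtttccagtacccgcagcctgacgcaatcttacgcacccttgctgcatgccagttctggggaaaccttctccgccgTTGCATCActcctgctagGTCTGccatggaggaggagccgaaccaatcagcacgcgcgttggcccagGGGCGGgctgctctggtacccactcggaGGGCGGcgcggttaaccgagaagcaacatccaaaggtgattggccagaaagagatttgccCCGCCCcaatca
Ppp1r15a promoter (chr1:105139597-105139846, - strand): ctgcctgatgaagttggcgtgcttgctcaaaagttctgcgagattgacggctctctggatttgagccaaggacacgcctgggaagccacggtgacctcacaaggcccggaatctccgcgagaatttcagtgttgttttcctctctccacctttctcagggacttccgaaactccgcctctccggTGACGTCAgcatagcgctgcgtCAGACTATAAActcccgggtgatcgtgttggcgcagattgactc
The motifs were the TATA box (TATAAA), present in 12.9% of all 33469 windows of this length, the GC box (GGGCGG, 30.5%), the ATF4-C/EBP element (TGATGNAA, 3.40%), the CRE (TGACGTCA, 1.59%), the AP-1 site (TGANTCA, 6.34%) and the Smad box (CAGAC, 42.9%). The Gdf15 window holds a TATA box 28 to 23 bases before the start, 5 GC boxes between 130 and 44 bases before it, and 1 Smad box. Trib3 and Chac1 each hold 1 ATF4-C/EBP element, 21 to 14 and 167 to 160 bases before the start. Ppp1r15a holds a CRE 66 to 59 bases before the start. The windows of Ddit3, Asns and Atf4, genes also lowest in replicate 1, were searched too but are not printed. They had 0 matches to the ATF4-C/EBP element and 0 to the CRE. Ddit3 held 1 AP-1 site, Asns 2 GC boxes and Atf4 2 TATA boxes. The printed Gdf15 window has no match to the ATF4-C/EBP element, the CRE or the AP-1 site, and its upstream start site matched none of the 6 motifs. The Tgfb1 window also matched none, that of Tgfbr1 held 3 GC boxes, and that of Tgfbr2 held 1. A match is a string of letters and not evidence of binding.

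The spot of Gdf15 and its surroundings were read on each array. The spot carried no outlier flag on any array, and its local background was 43.0, 44.0, 47.5 and 51.0 in replicates 1 to 4, small beside the signals. The 53 other detected spots within 5 rows and columns deviated in replicate 1 by a median of -0.06 from the other arrays, within -0.59 to 0.55. In a window of 2 rows and columns, chosen after the values were seen, 14 spots had a median of 0.11. Gdf15, at -1.86, lay outside the range of its neighbours in both windows. With 1 probe and 1 spot, no second measurement of Gdf15 exists on these arrays.

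**Figure D3:**
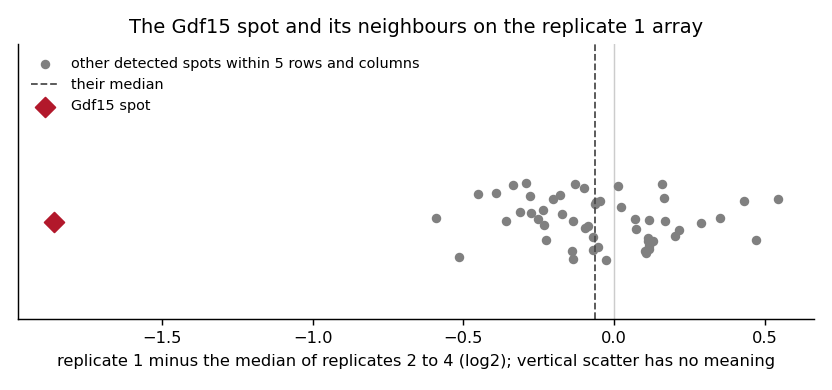
Deviation of replicate 1 from the median of replicates 2 to 4 (x axis, log2) for the Gdf15 spot (red diamond) and the 53 detected spots within 5 rows and columns (grey points; dashed line, their median of -0.06). The neighbours range from -0.59 to 0.55 and the Gdf15 spot is at -1.86.

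Tgfb1, the ligand gene that leukocytes mainly use, had signals of 3094, 2305, 3336 and 4065, or levels of 0.65, 0.22, 0.42 and 0.76 (mean 0.51 ± 0.24, SD, n = 4). Replicate 2 was lowest and replicate 4 highest, so Tgfb1 did not share the order of Gdf15. Its range was 1.45-fold, and its SD was larger than that of 91.8% of the 500 detected genes nearest in level (median 0.11). Tgfb2 and Tgfb3, ligand genes better known from epithelium and mesenchyme, stayed at processed signals of 4.01 to 7.77 and 3.49 to 5.16. Tgfb2 was represented by 3 probes, of which the brightest is quoted, and none was well above background. Inhba, which encodes the subunit of activin A and is known to be induced in inflammatory macrophages, gave signals of 10.9, 21.2, 14.4 and 15.3. Those Inhba signals were positive and significant by Agilent's weaker flag on all arrays but not well above background, and the second Inhba probe stayed at 4.34 to 6.65.

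Tgfbr2, the type II receptor gene, offers the best technical measure of the set, because its probe to XM_008766690 was printed in 10 spots. The array means of these spots were 1.87, 2.02, 2.18 and 2.19 in replicates 1 to 4 (mean 2.06 ± 0.15, SD, n = 4). Replicate 1 was lowest in each of the 9 spots kept on all arrays. Within an array the spots had SDs of 0.11, 0.10, 0.08 and 0.12, and the means of the arrays spanned 0.32, or 1.25-fold. A separate probe to NM_031132 gave -1.61, -1.30, -1.64 and -1.57, with replicate 2 highest and replicate 3 lowest. The order of the arrays therefore differed between the 2 Tgfbr2 probes, and no direction is given for the gene.

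**Figure D4:**
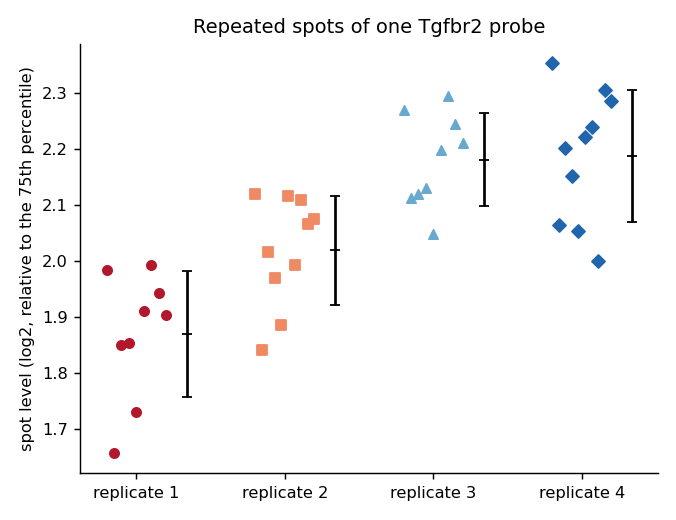
Levels (y axis, log2 relative to the array's 75th percentile) of the repeated spots of 1 Tgfbr2 probe on each array, with the mean and SD over spots as black bars. The array means run from 1.87 in replicate 1 to 2.19 in replicate 4, and the spots of an array have SDs of 0.08 to 0.12.

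Tgfbr1, the type I receptor gene, was at -3.24, -2.96, -3.14 and -3.04 (mean -3.09 ± 0.13, SD, n = 4), a range of 1.22-fold with replicate 1 lowest. Its SD exceeded that of 29.0% of the genes of like level. A second Tgfbr1 probe was well above background in replicate 2 alone, at a signal of 30.1 against 15.1 to 19.4 on the other arrays. Both probes had their highest value in replicate 2. On the level scale the second probe was lowest in replicate 3, at -7.11 against -7.02 in replicate 1.

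The Smad genes differed in detection more than in spread. Smad2, a receptor-regulated Smad, was at -2.02, -1.97, -1.81 and -1.95 (mean -1.94 ± 0.09, SD, n = 4) and had the smallest SD of the detected members, larger than that of 21.8% of genes of like level. Smad3, the other Smad of that step, gave signals of 6.78, 4.37, 4.75 and 4.92 from 1 probe, none of them well above background. Smad7, the inhibitor, was at -3.12, -2.62, -2.81 and -2.76 (mean -2.83 ± 0.21, SD, n = 4). Its replicate 1 value was lowest by 0.36 against the median of the other arrays, and without it the SD was 0.09. Leaving aside Gdf15, which was picked for this, 4 of the 5 detected members had their lowest level in replicate 1, namely Tgfbr1, Tgfbr2, Smad2 and Smad7. Over all detected genes replicate 1 was lowest for 28.5%. For Smad2 the difference was -0.06, and its lowest array was replicate 4 when scaled on the 75th percentile of all probes or with normexp background correction, and replicate 2 when scaled on the median of all probes. For Tgfbr2 the probes disagreed, and the dim second probe of Tgfbr1 was lowest in replicate 3.

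The other genes came from 7 lists that hold 165 genes besides the members. Besides TGF-beta lists, these include reported regulators of Gdf15 transcription and stress genes induced with it. Of 153 measured, 80 (52.3%) were detected, against 52.5% of all named genes, but this share pools unlike lists. The regulators were detected in 20 of 20 cases and the stress genes in 17 of 20. Among the TGF-beta lists, only other Smads and their partners (69.6%) lay above 52.5%. The other TGF-beta lists ranged from 11.5% to 50.0%. Among further ligands of the superfamily 3 of 26 were detected (Bmp5, Gdf7 and Amh), while Bmp2 and Bmp3 were detected on no array and Bmp1 on 3. Bmp5, a bone morphogenetic protein gene, was at -1.62, -1.98, -1.95 and -2.16. Among receptors and co-receptors 4 of 16 were detected. These were Acvrl1 (-1.65 ± 0.12, SD, n = 4) and Bmpr2 (-4.82 ± 0.39), receptors for bone morphogenetic proteins, Acvr2b (-4.75 ± 0.09), an activin receptor, and Eng (-4.11 ± 0.14), a co-receptor. Tgfbr3 (betaglycan) and the Gdf15 receptor gene Gfral were detected on no array, Acvr1 on 2 and Acvr1b on 3.

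Among other Smads and their partners 16 of 23 were detected. Smad4, the common partner of Smad2 and Smad3, was at -3.81, -3.41, -3.90 and -3.55. Smad1, a Smad of the bone morphogenetic protein branch, was at -2.35, -1.85, -1.67 and -1.48, lowest in replicate 1 like Gdf15, and Smad5 was at -4.73 ± 0.17 (SD, n = 4). Smad6, an inhibitory Smad, and Usp9x, a deubiquitinase, had the widest ranges of this list (2.66-fold and 2.62-fold), both at low levels of -5.87 and -4.96, and Usp15 followed at 1.94-fold. Genes that store, activate or inhibit the ligands were detected in 10 of 26 cases. Nrros, which anchors latent TGF-beta on myeloid cells, was at 2.36, 1.84, 2.26 and 2.14, and Furin, the protease that cleaves the precursors, at -0.47, -0.35, -0.23 and -0.18. Both were named after their values were seen. Ltbp2 was at -3.57 ± 0.09 (SD, n = 4), and Ltbp1 and Ltbp3, latent TGF-beta binding protein genes, were detected on no array. The widest ranges here were those of Mmp14 (3.22-fold), Itgb3 (1.45-fold) and Chrd (1.45-fold).

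Of 26 measured target genes of TGF-beta signalling, 13 were detected. The classical targets Ccn2 and Tgfbi were not detected on any array. Id1, an inhibitor of helix-loop-helix factors, was at -0.05, -0.41, -0.97 and -0.99, higher in replicates 1 and 2 than in replicates 3 and 4. Itgae ran from -5.03 in replicate 4 to -4.19 in replicate 1, and Cx3cr1, a chemokine receptor gene, from -4.42 in replicate 3 to -3.25 in replicate 2. Pparg, named after its values were seen, stood at 3.18, 3.39, 3.06 and 3.08. In these lists and those described next, 7 of the 80 detected genes spanned more than 2-fold, against 232 of all 8713 detected genes (2.66%). The median range was 0.49 log2 units against 0.33. Of the 7, 1 came from the regulators and 2 from the stress genes. Smad6, Mmp14 and Egr1 were dim, at mean levels of -5.87, -5.97 and -5.80. The genes were not matched for level, and the lists were written with results of these arrays known, so these counts are a description.

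Gdf15 was set beside 20 reported regulators of its transcription and 20 stress genes known to be induced with it. All 20 regulators and 17 stress genes were detected, the exceptions being Fgf21, Vldlr and Btg2. Replicate 1 was the lowest array for 13 of the 20 regulators and 10 of the 17 stress genes, against 28.5% of all detected genes. The median difference of replicate 1 was -0.25 for the regulators and -0.31 for the stress genes, against 0.02 for all detected genes. Under the 6 other ways of scaling or processing tried, the counts ran from 10 to 15 and from 9 to 10, and the medians stayed below those of all genes. Both lists were written with results of these arrays known, so the counts are a description. The spots around the regulators had median deviations in replicate 1 between -0.14 and 0.15, and those around the stress genes between -0.44 and 0.16, the lowest being at Chac1.

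Of the stress genes and regulators, several had the order of arrays seen for Gdf15, with smaller differences. Ddit3 was at 0.36, 0.99, 1.24 and 1.24, a difference of -0.88 in replicate 1. Trib3, a pseudokinase gene induced by CHOP, was at 1.45, 1.91, 2.15 and 2.19. Chac1, which encodes a glutathione-degrading enzyme, was at -2.10, -1.71, -1.47 and -1.31. Its neighbouring spots were themselves low in replicate 1, by a median of -0.44 against -0.63 for Chac1, and their part in its value was not tested. Around Ddit3, Trib3 and Ppp1r15a the neighbours' medians were 0.0034, 0.03 and 0.16. Ppp1r15a (GADD34), named after its values were seen, was at 1.58, 1.83, 2.19 and 2.21. In each of these 4 genes, 3 of which have their upstream sequence printed above beside that of Gdf15, replicate 1 was lowest, replicate 2 next, and replicates 3 and 4 highest. Atf4 itself was at 3.60, 3.95, 3.85 and 3.76, and Asns, which encodes asparagine synthetase, at 2.52, 2.56, 2.82 and 2.85.

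The growth arrest and death genes in the stress list did not share 1 direction. Phlda3 was at -3.29, -3.57, -4.42 and -4.55, so replicate 1 lay 1.13 above the median of the others. Cdkn1a was at 2.24, 2.34, 1.64 and 1.74, and Ccng1 at -0.70, -0.88, -1.13 and -1.13, and Mdm2 at -2.38, -2.18, -2.52 and -2.59. These 3, and the genes of the next sentence, were named after their values were seen. Gadd45a (-0.47), Bbc3 (-0.39), Sesn2 (-0.31) and Plk3 (-0.11) had replicate 1 below the median of the others by the log2 differences in parentheses. Hmox1, the haem oxygenase gene, was at 3.67, 3.82, 2.72 and 2.95. In Hmox1, Phlda3, Cdkn1a, Ccng1 and Mdm2, replicates 1 and 2 were both above replicates 3 and 4. Egr1, an immediate early gene, was at -6.56, -6.36, -5.36 and -4.91, of which the lowest lie close to the dimmest detected probes. Jun and Atf3 stood apart in replicate 2, at 0.25 and 0.32, against -0.68 to -0.42 in the other arrays.

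**Figure D5:**
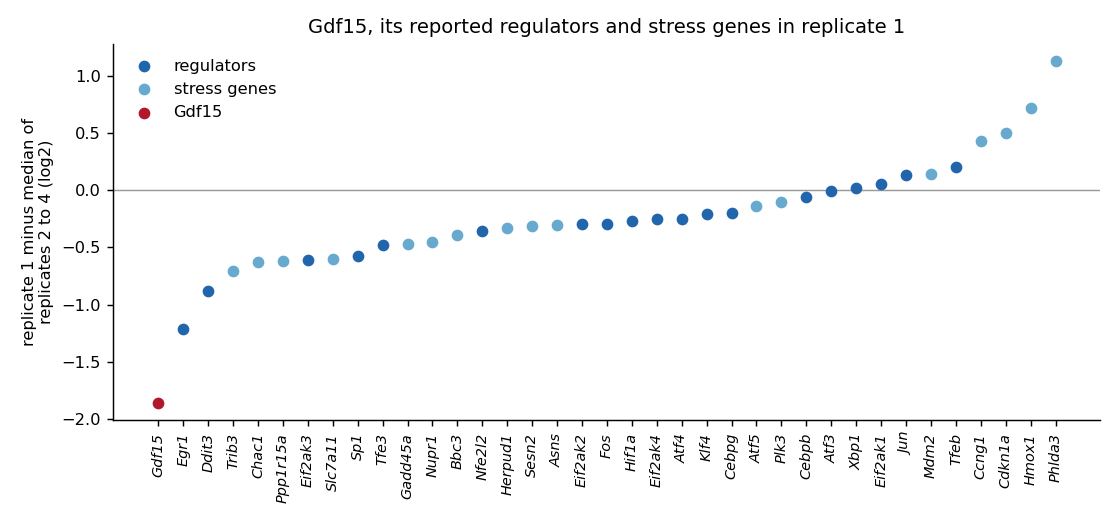
Difference between replicate 1 and the median of replicates 2 to 4 (y axis, log2) for Gdf15 (red), 19 of the detected regulators (dark blue) and the detected stress genes (light blue), sorted by value. Gdf15 is lowest at -1.86, followed by Egr1 at -1.21 and Ddit3 at -0.88, and Phlda3 is highest at 1.13. Over the scalings and probe rules tried, Egr1 ran from -1.40 to -0.27 and Ddit3 from -1.06 to -0.81, so the place of Egr1 is not fixed.

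The detected genes whose 4 levels lay closest to Gdf15 after centring each gene on its mean were Tlr2, Hmgcs1, Sec24a, Dstyk and Cby1, at Euclidean distances of 0.20, 0.28, 0.32, 0.35 and 0.38 over 4 arrays. With 4 arrays this likeness is a description and implies no shared control. Tlr2, a Toll-like receptor gene, was at -1.54, 0.17, 0.35 and 0.33, and Hmgcs1, which encodes an enzyme of cholesterol synthesis, at -1.71, -0.61, -0.09 and -0.09. Sec24a was at -5.67, -3.95, -3.44 and -3.38. The spots around these genes were read as for Gdf15. In replicate 1 the neighbouring spots had median deviations of -0.27 for Tlr2, -0.65 for Hmgcs1, -0.39 for Dstyk and -0.34 for Cby1, against -0.10 for Sec24a and -0.06 for Gdf15. The part of dim neighbourhoods in the values of the first 4 was not tested.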

How the data were processed

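Total RNA of the 4 samples was labelled with Cy3 and hybridised to one-colour Agilent arrays, per the labels' protocols. The deposited intensity values are Agilent's processed signals, background-subtracted by the scanner software, per the file headers, which the submitters' processing notes name as Agilent Feature Extraction 11.0.1.1. No normalization between arrays is given in the sources used here. The arrays' design build (rn4, per the file headers) differs from GRCr8, so no coordinates are given apart from those of the RefSeq promoter sequences.

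Control spots and spots with an outlier flag were left out. Repeated spots were averaged as log2 values, and the array's 75th percentile over probes detected on all arrays was subtracted (signals of 1970, 1980, 2493 and 2402.5 in replicates 1 to 4). A gene's level came from its brightest probe, detected ones first. Accessions were matched without versions to RefSeq. This named 21109 of 45598 probes. No test between groups was run, because the samples form 1 group; Dixon's limit for a lone outlying value was applied within genes. The comparison is descriptive, and the number of arrays limits the precision. The level computation was tested on simulated data.

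Named genes are the members, the first 3 and the 3 widest-ranging detected genes of each list, exceptions to a list's detection where these are 5 or fewer, and the 5 genes nearest to Gdf15; others are marked in the text. Some genes of the lists are counted but not reported here by name. Members and lists were chosen with earlier results of these data known. Alternatives were other detection flags, scalings, normexp background correction (limma 3.58.1 in R 4.3.3, offset 50, on the median signal because a mean signal was not used here), outlier flags, probe averaging and leaving out replicates. Computation used Python 3.11.15 with pandas 2.3.3.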

Additional observations from a re-analysis of the deposited data

Results flagged for a closer look

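Of 45 sets of 4 levels examined (the members, the detected genes named by rule and the genes nearest to Gdf15), 6 held a lone value for which the gap to its nearest neighbour, as a share of the range, passed Dixon's 95% limit. Chance passes about 1 set in 20 where sets are not selected, a rate that cannot be read against these, since many were named for a wide range or for likeness to Gdf15. Tgfb2 stood high in replicate 2 (share 0.904), at a signal of 7.77 that was not well above background. Amh was high in replicate 1 (share 0.891), at -5.99 against -6.52 to -6.46, also a dim probe. Atf3 (share 0.915) and Jun (share 0.832) were both high in replicate 2. Tlr2 (share 0.905) and Cby1 (share 0.914) were low in replicate 1; both were picked for likeness to Gdf15.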

How the results depend on the processing

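The number of detected members was 6, with a range of 5 to 7 over the alternatives: requiring all probes of a gene dropped Tgfbr1, and the weaker Agilent flag added Inhba. Detected genes of the 7 lists numbered 80, with a range of 74 to 96. The difference of Gdf15 in replicate 1 was -1.86 and ran from -2.04 (scaling on the median of all probes) to -1.71 (normexp), and from -1.88 to -1.67 when replicate 2, 3 or 4 was left out. The SD of Gdf15 was 0.89 and ran from 0.83 to 0.97 over scalings, and from 0.23 without replicate 1 to 1.08 without replicate 2. Scaling on the median of all probes shifted the replicate 1 difference of all detected genes from 0.02 to -0.12, relative to which Gdf15 was still the lowest member. The sign of the replicate 1 difference was kept under every scaling and probe rule for Gdf15, Tgfb1, Tgfbr1, Tgfbr2, Smad3 and Smad7, and changed for Tgfb2, Tgfb3, Smad2 and Inhba under at least 1. Acvrl1, Cx3cr1 and Jun changed sign with median scaling and Smad6 with normexp. Some differences kept their sign but changed in size. Egr1 ran from -1.40 to -0.27, Usp9x from -1.23 to -0.20, Cby1 from -1.60 to -0.55 and Sec24a from -2.43 to -1.22. Without replicate 1, chosen after seeing the data, 0 detected members and 100 detected genes spanned more than 2-fold, against 1 and 232 with it. For the genes of the 7 lists the counts were 5 against 7. Leaving out any array can only keep or narrow a range, so these counts could not rise. Counts without another replicate are not given here, so the fall is not a trait of replicate 1. No paired analysis was possible because the samples form 1 group. Dim probes limit the values of the 4 members that were not detected.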
